A study of Mus musculus with 54 samples.

Results

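The canonical WNT target genes followed here are Axin2, Notum, Nkd1, Lef1, Tcf7 and Sp5. They were picked by name as genes that WNT signalling is known to switch on, with earlier results of these data known, and all 6 were present among the 20036 genes of the expression table. Their mRNA levels were measured by RNA sequencing in mouse embryonic stem cells (ESC), in the epiblast-like cells (EpiLC) made from them, and in primordial germ cell-like cells (PGCLC) sampled on day 2, the culture model of the first germ cells. Each stage was sampled in 9 lines with 2 libraries per group, which gave 27 groups and 54 libraries. The study asks how the Ovol genes, which encode zinc finger transcription factors, act when germ cells and somatic cells separate.

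The lines carry the names of their sample titles. Ovol1KO, Ovol2KO and Ovol3KO have the genotype labels Ovol1 mutant, Ovol2 mutant and Ovol3 mutant, and TKO is labelled only TKO. The 4 transgenic (Tg) lines are labelled as overexpressing (OE) the Ovol2a form (Ovol2a-Tg), the Ovol2b form (Ovol2b-Tg), both forms (Ovol2a/2b-Tg) or, in Cdh1-Tg, Cdh1, the gene of the adhesion protein E-cadherin. WT is wild type. All lines have the strain label C57BL/6 X 129/SvJ. For the line in which the transgenes sit, their promoters and the number of clones per line, nothing was given in the sources used here. The same holds for whether the 2 libraries of a group are separate cultures, and p-values therefore reflect only how far these libraries differ, which may be technical. The lines are named in different styles in the labels, and a batch that goes with the line cannot be told apart from it.

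The labels were checked against targeted genes in PGCLC, with levels given here for Ovol2KO, TKO (Ovol2 only), Ovol3KO, Ovol2a-Tg and Cdh1-Tg. Ovol2 mRNA was still present in Ovol2KO PGCLC, at 4.74 and 6.68 TPM, against 11.3 and 6.98 TPM in WT PGCLC, and it stood at 1.52 and 0.835 TPM in TKO PGCLC. Ovol3 mRNA was 9.84 and 7.25 TPM in Ovol3KO PGCLC, against 9.39 and 9.66 TPM in WT PGCLC. These are sums over whole genes, in which a small deletion would not show, and the knockout lines are named as labelled. Of the transgenes, Ovol2 reached 900.4 and 867 TPM in Ovol2a-Tg PGCLC and Cdh1 562 and 563 TPM in Cdh1-Tg PGCLC. The cell type tags of 8 libraries go against their titles: the Ovol2a-Tg PGCLC pair is tagged as EpiLC, the Cdh1-Tg ESC pair as PGCLC, and the Cdh1-Tg EpiLC and PGCLC pairs as ESC. Titles were followed for these. The 8 primitive streak and mesoderm markers summed to 1072 to 1410.4 TPM in the Ovol2a-Tg libraries titled PGCLC and 1431 to 1479.9 TPM in the Cdh1-Tg libraries titled PGCLC, against 5.61 to 6.09 TPM in those titled Cdh1-Tg ESC and 9.63 to 11.8 TPM in those titled Cdh1-Tg EpiLC. The 6 naive ESC markers summed to 942 to 963 TPM in the libraries titled Cdh1-Tg ESC. Of the sets of marker genes over all lines, those of naive ESC summed to 902 to 1396 TPM in ESC, against 43.1 to 179 TPM in EpiLC, and those of primitive streak and mesoderm to 79.4 to 2308 TPM in PGCLC, against 5.06 to 11.8 TPM in EpiLC. The libraries held 2085810 to 26056974 reads each, as recovered from the values. In bulk samples such as these, fewer cells of a type and less RNA per cell cannot be told apart.

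WNT proteins stop a protein complex from destroying beta-catenin, which then enters the nucleus and switches on genes together with DNA-binding proteins of the TCF/LEF family. Several of the genes that respond feed back on the pathway. In the mouse embryo WNT signalling is needed for the primitive streak and mesoderm, and it makes epiblast cells competent to become germ cells. Axin2 is a scaffold of the beta-catenin destruction complex, Notum is a secreted enzyme that removes the lipid WNT proteins need, and Nkd1 binds Dishevelled and dampens the signal. Lef1 and Tcf7 are 2 of the TCF/LEF proteins themselves. Sp5 is a zinc finger transcription factor of the Sp family.

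Coordinates are those of the GENCODE annotation on the mm10 build. Axin2 is at chr11:108920349-108950783 on the plus strand, Notum at chr11:120653788-120661175 on the minus strand and Tcf7 at chr11:52252371-52283014 on the minus strand. Nkd1 is at chr8:88521354-88594884, Lef1 at chr3:131110471-131224356 and Sp5 at chr2:70474923-70477729, all on the plus strand. Antisense genes are annotated across Axin2, Lef1, Tcf7 and Notum. The library kit keeps the strand, but with the strand setting of the counting unknown, reads of such partners cannot be told apart from those of the gene.

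The 250 bases before the transcription start are shown for Sp5 and Axin2, because the levels of this pair moved together over the stages and apart between the lines. Both windows lie outside any annotated gene. The sequences are from RefSeq (GRCm38.p6), read 5′ to 3′ on the plus strand, at chr2:70474673-70474922 for Sp5 and chr11:108920099-108920348 for Axin2. Capitals mark matches, on either strand, to the letters that TCF/LEF proteins bind, which are CTTTGAA and its variant CTTTGAT as well as CTTTGTA and its variant CTTTGTT.
Sp5: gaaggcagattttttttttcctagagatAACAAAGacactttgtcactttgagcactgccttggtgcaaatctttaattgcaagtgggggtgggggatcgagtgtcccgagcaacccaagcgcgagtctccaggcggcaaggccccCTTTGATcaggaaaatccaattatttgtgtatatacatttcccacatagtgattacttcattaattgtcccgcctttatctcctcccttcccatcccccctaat
Axin2: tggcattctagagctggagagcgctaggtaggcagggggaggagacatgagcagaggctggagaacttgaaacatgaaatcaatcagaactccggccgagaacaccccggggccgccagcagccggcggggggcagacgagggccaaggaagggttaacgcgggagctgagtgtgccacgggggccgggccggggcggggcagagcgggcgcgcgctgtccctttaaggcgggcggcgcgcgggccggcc
The Sp5 window held AACAAAG on the other strand, 222 to 216 bases before the start, and CTTTGAT on the gene strand, 104 to 98 bases before it. The Axin2 window held no match. Of all 32851 promoter windows of this length, 4874 (14.8%) held at least 1 match, and the matches are a description only. Windows were listed for 5 of the 6 genes. Of 4 windows listed for Lef1, 1 held a match, and those of Tcf7 and Nkd1 held none. The Lef1 window with the match, at chr3:131156044-131156293, lies inside the annotated Lef1 gene. The Nkd1 window, at chr8:88527383-88527632, lies inside Nkd1, so the bases before the annotated start of Nkd1 were not searched.

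In WT the 6 genes took different courses from ESC to EpiLC and rose together from EpiLC to PGCLC. Changes were tested with limma on the scale log2(TPM + 1), where TPM is a share of all mRNA that is scaled for gene length. To be called, a gene needed a log2 fold change of 1 or more in either direction and a p under 0.05 after Benjamini-Hochberg (BH) adjustment over 14416 tested genes. All 6 genes passed the filter on low values, which asked for 1 TPM or more in 2 libraries. The ± of a fold change is its SE. On this scale they understate the change of scarce genes.

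Of the feedback inhibitors, Axin2 and Notum were low in WT EpiLC. Axin2 was at 32.7 and 31.2 TPM in WT ESC, 2.33 and 1.98 TPM in WT EpiLC and 96.2 and 89.6 TPM in WT PGCLC. Notum was at 108 and 109 TPM in ESC, 0.289 and 0.655 TPM in EpiLC and 27.7 and 24.0 TPM in PGCLC. Axin2 was thus highest in PGCLC and Notum in ESC, and no 2 stages overlapped for either gene. Nkd1 was scarce in ESC, at 0.406 and 0.623 TPM from 5 and 4 reads, and stood at 1.96 and 2.70 TPM in EpiLC and 17.3 and 13.6 TPM in PGCLC, so its stages did not overlap and went upwards.

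The TCF/LEF genes did not dip in EpiLC. Lef1 was at 1.38 and 1.70 TPM in WT ESC, 16.0 and 16.3 TPM in WT EpiLC and 71.6 and 65.7 TPM in WT PGCLC. Tcf7 was already abundant in ESC, at 70.1 TPM in both libraries, and stood at 74.2 and 79.0 TPM in EpiLC and 178 and 170.05 TPM in PGCLC. Within a library Lef1 was 0.0196 and 0.0242 of Tcf7 in WT ESC, 0.215 and 0.206 in WT EpiLC and 0.401 and 0.386 in WT PGCLC, so Lef1 gained on its relative at each stage. Sp5 was at 14.2 and 16.6 TPM in WT ESC, was listed at 0 in 1 EpiLC library and at 0.0573 TPM in the other, and reached 84.4 and 96.9 TPM in WT PGCLC. Its EpiLC level rests on 1 read in all.

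**Figure D1:**
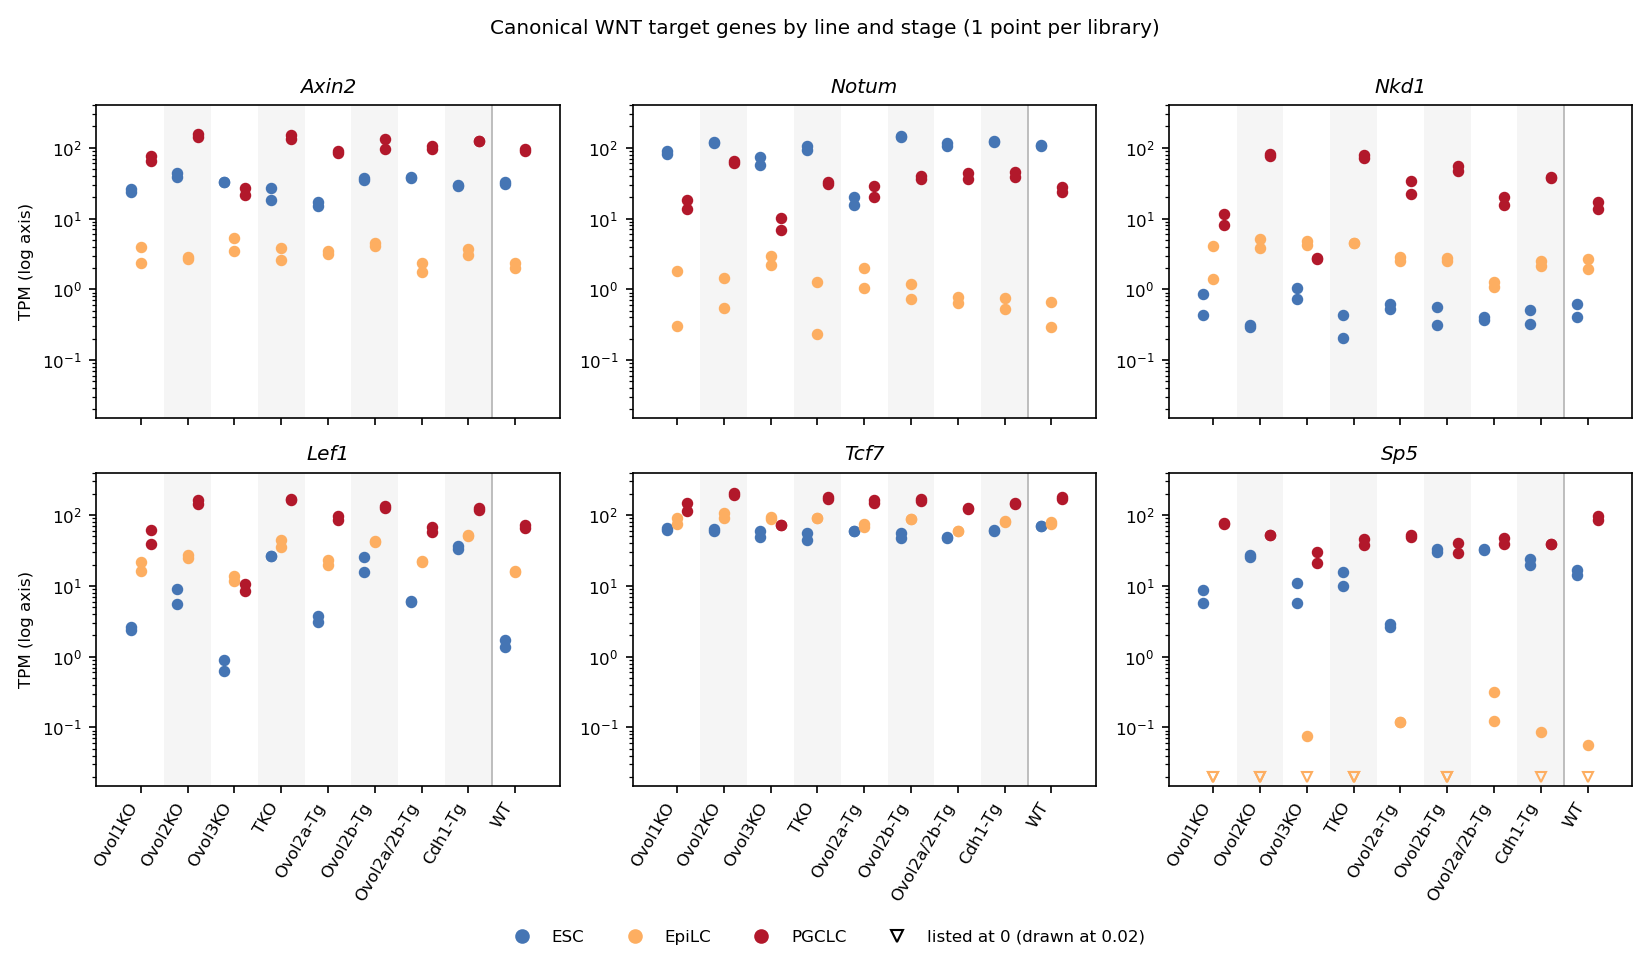
TPM of the 6 WNT target genes (log axis) in each of the 9 lines, 1 point per library, coloured by stage, with WT at the right. Sp5 is listed at 0 in 11 of 18 EpiLC libraries, drawn as open triangles, and Tcf7 keeps within 45.2 and 206 TPM in all 54 libraries.

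Between EpiLC and ESC of WT, 5 of the 6 genes changed, 2 upwards and 3 downwards, where 20.6% of all tested genes changed. Axin2 (log2 fold change −3.39 ± 0.17), Sp5 (−3.99 ± 0.20) and Notum (−6.22 ± 0.26) fell in EpiLC, and Lef1 (2.76 ± 0.18) and Nkd1 (1.13 ± 0.23) rose, with BH adjusted p from limma between 1.25e-20 and 5.99e-05. Tcf7 stood at 0.13 ± 0.10 (limma, BH adjusted p = 0.31). The median over the 6 genes was −1.63, and over all tested genes −0.011. Nkd1 was no longer called without replicate 2 of WT EpiLC (0.97 ± 0.28, limma, BH adjusted p = 0.00369).

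Between PGCLC and EpiLC of WT, all 6 genes rose, where 21.1% of all tested genes changed and 13.5% rose. Sp5 had the largest log2 fold change (6.47 ± 0.20), before Axin2 (4.90 ± 0.17), Notum (4.20 ± 0.26), Nkd1 (2.31 ± 0.23), Lef1 (2.02 ± 0.18) and Tcf7 (1.17 ± 0.10), with BH adjusted p from limma of at most 7.33e-11. The median over the 6 genes was 3.25, against a median over all tested genes of 0.148. For Sp5 the reads gave a PGCLC over EpiLC ratio of 1927, with an exact 95% interval of 345 to 76170.0 that covers counting error only, since a single EpiLC read was in the denominator.

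In the other 8 lines the calls from ESC to EpiLC differed from gene to gene. Axin2, Notum and Sp5 fell in all 8, and 37 of the 48 values for 6 genes and 8 lines were called, 13 higher and 24 lower in EpiLC, where 19.9% of all values of all genes were called. The rise of Lef1 in EpiLC was called in 6 of the 8 lines and not in TKO (0.56 ± 0.18, limma, BH adjusted p = 0.00908) or Cdh1-Tg (0.54 ± 0.18, limma, BH adjusted p = 0.0113). Those were the lines with the most Lef1 in ESC. Leaving out 1 library put the rise of Lef1 in Ovol2b-Tg EpiLC short of the fold threshold (0.69 ± 0.20 without replicate 2 of its ESC, 0.98 ± 0.23 without 1 of its EpiLC libraries). The same held for the rise of Nkd1 in Ovol1KO EpiLC (0.55 ± 0.23 without replicate 1 of its EpiLC, 0.92 ± 0.28 without replicate 2 of its ESC). Those calls were thus lost.

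From EpiLC to PGCLC, 41 of 48 values were called higher and none lower with limma, where 21.2% of all values of all genes were called and 12.7% were called higher. All 48 had an unadjusted p under 0.05, and limma-voom called 39 in all. Axin2, Notum and Sp5 rose in every line. Sp5 was listed at 0 in both EpiLC libraries of 4 lines, and against the 3 reads that a count of 0 allows over the group its level in PGCLC was at least 263-fold higher in Ovol1KO, 264-fold in Ovol2KO, 369-fold in TKO and 185-fold in Ovol2b-Tg. Tcf7 passed the fold threshold in Ovol2KO, Ovol2a-Tg and Ovol2a/2b-Tg, at 1.01 to 1.12, and stood at 0.63 to 0.95 in the 4 lines left apart from Ovol3KO. In Ovol2KO the Tcf7 value was 0.88 ± 0.12 without replicate 2 of its EpiLC and 0.96 ± 0.13 without replicate 2 of its PGCLC.

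Ovol3KO was the line in which Lef1, Tcf7 and Nkd1 did not rise on the way to PGCLC. Their log2 fold changes in PGCLC against EpiLC were −0.38 ± 0.18 (limma, BH adjusted p = 0.0826), −0.34 ± 0.10 (0.00638) and −0.59 ± 0.23 (0.0298). Axin2 (2.25 ± 0.17), Notum (1.41 ± 0.26) and Sp5 (4.65 ± 0.20) still rose there.

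In PGCLC all 6 genes were lower in Ovol3KO than in WT, where 12.8% of all tested genes changed and 8.5% fell. Lef1 was at 10.7 and 8.60 TPM in Ovol3KO PGCLC, against 71.6 and 65.7 TPM in WT PGCLC (log2 fold change −2.72 ± 0.16, limma, BH adjusted p = 1.27e-08). Nkd1 was at 2.67 and 2.74 TPM in Ovol3KO PGCLC, against 17.3 and 13.6 TPM in WT PGCLC (−2.14 ± 0.19, limma, BH adjusted p = 3.97e-07). Both genes stood below all libraries of the other 8 lines, and the same held for Axin2, Tcf7 and Notum. Axin2 was at 27.4 and 21.6 TPM in Ovol3KO PGCLC, against 96.2 and 89.6 TPM in WT PGCLC (−1.89 ± 0.14, limma, BH adjusted p = 7.59e-08). Tcf7 was at 71.8 and 72.3 TPM in Ovol3KO PGCLC, against 178 and 170.05 TPM in WT PGCLC (−1.26 ± 0.10, limma, BH adjusted p = 1.06e-07). Notum was at 10.3 and 6.85 TPM, against 27.7 and 24.0 TPM in WT PGCLC (−1.51 ± 0.19, limma, BH adjusted p = 1.07e-05). Feedback inhibitors and TCF/LEF genes thus fell together. Sp5 was at 29.8 and 20.9 TPM in Ovol3KO PGCLC, against 84.4 and 96.9 TPM in WT PGCLC (−1.81 ± 0.16, limma, BH adjusted p = 4.30e-07), and here the higher Ovol3KO library overlapped with Ovol2b-Tg. The median over the 6 genes was −1.85, and over all tested genes −0.115.

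The difference between the Ovol3KO effects in PGCLC and EpiLC was called for all 6 genes in limma, where it was called for 16.1% of all tested genes. For Sp5 it was not called in limma-voom. In EpiLC of this line Notum was at 2.94 and 2.20 TPM, against 0.289 and 0.655 TPM in WT EpiLC, and the difference of its effect, PGCLC minus EpiLC, was −2.79 ± 0.37 (limma, BH adjusted p = 2.59e-07). The difference was −2.89 ± 0.32 for Nkd1, −2.64 ± 0.25 for Axin2, −2.40 ± 0.26 for Lef1, −1.83 ± 0.28 for Sp5 and −1.52 ± 0.15 for Tcf7. With limma-voom on the recovered reads the value of Sp5 was −0.89 ± 1.13 (BH adjusted p = 0.562), and its EpiLC libraries held 0 and 1 read.

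Markers of other cell states moved with Ovol3KO. Summed over 8 genes, primitive streak and mesoderm markers stood at 79.4 to 121 TPM in Ovol3KO PGCLC, against 816 to 936 TPM in WT PGCLC, with 7 of the 8 called lower and Msgn1 listed at 0 in both Ovol3KO libraries. The 6 naive ESC markers summed to 459.97 to 503 TPM in Ovol3KO PGCLC, against 209 to 216 TPM in WT PGCLC, with 5 called higher and 1 lower. The 5 EpiLC markers summed to 315 to 404 TPM in Ovol3KO PGCLC, against 168 to 198 TPM in WT PGCLC, with 2 called higher and 0 lower. Of all tested genes 4.34% rose in Ovol3KO PGCLC. Of the 5 PGCLC markers 2 were called higher, Dppa3 at 178 ± 7.2 TPM in Ovol3KO PGCLC, against 19.2 ± 1.7 TPM in WT PGCLC, and Tfap2c at 102 ± 1.3 TPM, against 43.9 ± 0.28 TPM in WT PGCLC (SD, n = 2 each), and the median over the 5 was 0.46. The 5 PGCLC markers were higher still in WT ESC, where they summed to 263 to 299 TPM, against 112 to 115 TPM in WT PGCLC. Dppa3 was at 111 to 143 TPM in WT ESC. A rise of this list thus cannot be told apart from a rise of genes expressed in ESC. The part of these shifts in the lower WNT target genes was not tested.

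**Figure D2:**
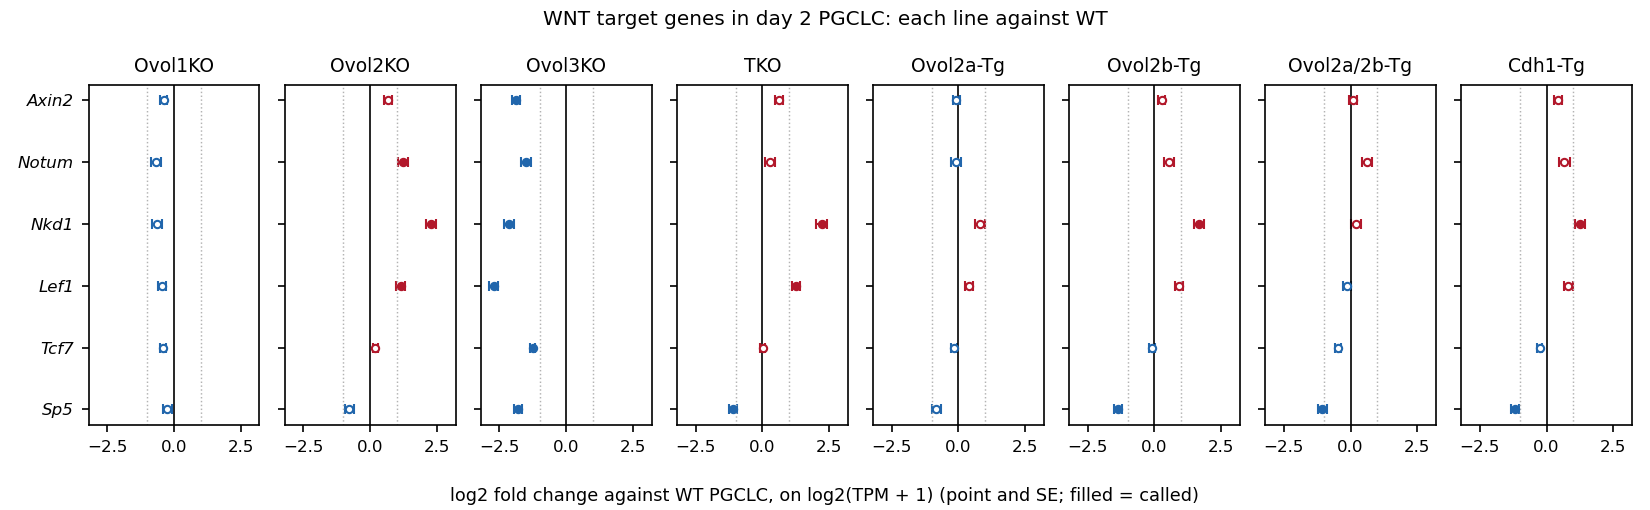
Log2 fold change of the 6 WNT target genes (with SE, on log2(TPM + 1)) in day 2 PGCLC of each line against WT, filled where called and red where positive. All 6 are filled and negative in Ovol3KO, while Sp5 is negative and Nkd1 positive in Ovol2KO, TKO and the 4 transgenic lines.

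In Ovol2KO PGCLC the 6 genes split, with 3 called higher and none called lower, where 8.18% of all tested genes changed and 4.11% rose. Nkd1 was at 76.5 and 80.9 TPM in Ovol2KO PGCLC, against 17.3 and 13.6 TPM in WT PGCLC (log2 fold change 2.28 ± 0.19, limma, BH adjusted p = 5.65e-07). Notum was at 60.1 and 64.2 TPM, against 27.7 and 24.0 TPM in WT PGCLC (1.24 ± 0.19, limma, BH adjusted p = 0.000158). Lef1 was at 143 and 162 TPM, against 71.6 and 65.7 TPM in WT PGCLC (1.14 ± 0.16, limma, BH adjusted p = 8.84e-05). Both Ovol2KO libraries were above both WT libraries for each of these genes. Axin2 was also above WT, at 142 and 155 TPM in Ovol2KO PGCLC, but short of the fold threshold (0.67 ± 0.14, limma, BH adjusted p = 0.00226). Sp5 went the other way, at 51.8 and 52.5 TPM in Ovol2KO PGCLC, against 84.4 and 96.9 TPM in WT PGCLC, again short of the fold threshold (−0.78 ± 0.16, limma, BH adjusted p = 0.00194). Tcf7 was at 194 and 206 TPM in Ovol2KO PGCLC (0.20 ± 0.10, limma, BH adjusted p = 0.149). The median over the 6 genes was 0.90, and over all tested genes 0.036.

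In TKO PGCLC the genes also went both ways, with Nkd1 and Lef1 higher and Sp5 lower than in WT, where 10.5% of all tested genes changed. Nkd1 was at 72.1 and 78.0 TPM in TKO PGCLC (log2 fold change against WT 2.22 ± 0.19, limma, BH adjusted p = 4.32e-07). Lef1 was at 163 and 169 TPM (1.26 ± 0.16, limma, BH adjusted p = 2.26e-05). Sp5 was at 46.2 and 37.6 TPM (−1.10 ± 0.16, limma, BH adjusted p = 7.96e-05). None of these libraries overlapped with WT, but the Sp5 call was lost without replicate 2 of TKO (−0.96 ± 0.19, limma, BH adjusted p = 0.0021). Axin2 was at 153 and 134 TPM in TKO PGCLC (0.62 ± 0.14, limma, BH adjusted p = 0.00279), Notum at 31.1 and 32.97 TPM (0.30 ± 0.19, limma, BH adjusted p = 0.238) and Tcf7 at 182 and 172 TPM (0.02 ± 0.10, limma, BH adjusted p = 0.905).

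TKO was also set directly against Ovol2KO in PGCLC. None of the 6 genes was called by limma or by limma-voom, and 1 had an unadjusted p under 0.05 in limma, where 0.985% of all tested genes changed. That gene was Notum, at 31.1 and 32.97 TPM in TKO PGCLC, against 60.1 and 64.2 TPM in Ovol2KO PGCLC (−0.94 ± 0.19 on the log2 scale, limma, BH adjusted p = 0.00811). The Notum libraries of the 2 lines did not overlap. Lef1 (0.12 ± 0.16), Nkd1 (−0.07 ± 0.19) and Axin2 (−0.05 ± 0.14) had values within 1 SE of 0.

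The effect of both lines on Nkd1 was larger in PGCLC than in EpiLC. The difference of the effect, PGCLC minus EpiLC, was 1.55 ± 0.32 in Ovol2KO (limma, BH adjusted p = 0.000586) and 1.49 ± 0.32 in TKO (limma, BH adjusted p = 0.000694). It was called for 1 of the 6 genes in Ovol2KO, where 7.71% of all tested genes were called, and for 2 in TKO, where 9.41% were. The other gene in TKO was Sp5 (−1.06 ± 0.28, limma, BH adjusted p = 0.00561). That call was lost without replicate 2 of WT PGCLC (−0.96 ± 0.32) or without replicate 2 of TKO PGCLC (−0.91 ± 0.32), and limma-voom gave 0.02 ± 1.14 (BH adjusted p = 0.995), while both EpiLC libraries of TKO held no Sp5 read.

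Markers of other cell states and types moved with both lines. Of the 6 naive ESC markers 4 were called lower in Ovol2KO (median −2.11) and 5 in TKO (−2.65), and none higher. Of the 5 EpiLC markers 3 were called lower in Ovol2KO and 2 in TKO. Of all tested genes 4.07% fell in Ovol2KO and 4.95% in TKO. Of 5 tested blood and endothelium markers 0 were called higher in Ovol2KO and 4 in TKO. Hand1, a factor of lateral mesoderm and trophoblast, rose to 1102 ± 130 TPM in Ovol2KO PGCLC and 1388 ± 110 TPM in TKO PGCLC, against 111 ± 43 TPM in WT PGCLC (SD, n = 2 each). Of the 8 primitive streak and mesoderm markers, which include Hand1, 2 were called higher and 1 lower in Ovol2KO, and 3 higher and 1 lower in TKO. All 8 summed to 1744 to 2082 TPM in Ovol2KO PGCLC and 2219 to 2308 TPM in TKO PGCLC, against 816 to 936 TPM in WT PGCLC. Without Hand1 the sums were 736 to 885 TPM in Ovol2KO and 839 to 911 TPM in TKO, against 735 to 795 TPM in WT, so Ovol2KO overlapped with WT. Within that list Eomes fell, to 1.83 ± 0.66 TPM in Ovol2KO PGCLC, against 52.7 ± 13 TPM in WT PGCLC (SD, n = 2 each, limma, BH adjusted p = 2.46e-07). Of the fibroblast markers 2 of 6 tested were called higher in Ovol2KO and 5 of 6 in TKO, with Dcn listed at 0 in both libraries of each line. Col1a1, a collagen, made up most of their sum, at 88.7 ± 6.0 TPM in Ovol2KO PGCLC and 245 ± 13 TPM in TKO PGCLC, against 10.2 ± 2.6 TPM in WT PGCLC. The other 7 summed to 23.9 to 24.2 TPM in Ovol2KO and 34.3 to 44.0 TPM in TKO, against 9.90 to 15.0 TPM in WT. Of the 5 PGCLC markers 2 were called lower in Ovol2KO and 3 in TKO. They summed to 42.5 to 70.0 TPM in Ovol2KO PGCLC and 36.9 to 42.9 TPM in TKO PGCLC, against 112 to 115 TPM in WT PGCLC. The part of these shifts in the WNT target values was not tested.

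In the 4 transgenic lines Sp5 was below WT in every PGCLC library, and the means of Nkd1 lay between those of WT and TKO. All comparisons with WT share the same 2 WT libraries. In Ovol2b-Tg PGCLC Nkd1 was at 55.9 and 47.5 TPM (log2 fold change against WT 1.68 ± 0.19, limma, BH adjusted p = 9e-06) and Sp5 at 29.5 and 40.2 TPM (−1.37 ± 0.16, limma, BH adjusted p = 1.45e-05), so 1 gene rose and 1 fell, where 8.3% of all tested genes changed. Lef1 stood at 128 and 133 TPM there, short of the fold threshold (0.92 ± 0.16, limma, BH adjusted p = 0.000477). In Cdh1-Tg PGCLC Nkd1 was at 36.9 and 38.7 TPM (1.25 ± 0.19, limma, BH adjusted p = 9.97e-05) and Sp5 at 39.7 and 39.0 TPM (−1.18 ± 0.16, limma, BH adjusted p = 3.93e-05), where 9.86% of all tested genes changed. In both lines the Nkd1 libraries were above WT and the Sp5 libraries below it.

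The lines with Ovol2a had 1 and 0 called genes. In Ovol2a/2b-Tg PGCLC Sp5 fell, at 47.3 and 38.8 TPM, against 84.4 and 96.9 TPM in WT PGCLC (log2 fold change −1.06 ± 0.16, limma, BH adjusted p = 0.000132), as the 1 gene of 6 that was called, where 7.62% of all tested genes changed. The call was lost without replicate 2 of WT (−0.96 ± 0.20) or without replicate 2 of Ovol2a/2b-Tg (−0.92 ± 0.19). Nkd1 was at 20.3 and 15.8 TPM (0.21 ± 0.19, limma, BH adjusted p = 0.429) and Lef1 at 68.2 and 57.1 TPM (−0.13 ± 0.16, limma, BH adjusted p = 0.565), and both overlapped with WT. In Ovol2a-Tg PGCLC none of the 6 genes was called by limma or limma-voom, and 3 had an unadjusted p under 0.05 in limma, where 3.43% of all tested genes changed. Sp5 was at 52.6 and 49.2 TPM there (−0.82 ± 0.16, limma, BH adjusted p = 0.00268). Nkd1 was at 22.4 and 34.1 TPM (0.81 ± 0.19, limma, BH adjusted p = 0.00843) and was called without replicate 1 of Ovol2a-Tg (1.10 ± 0.20).

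Marker lists moved in PGCLC of the transgenic lines as well. Of the 6 naive ESC markers 5 were called lower in Cdh1-Tg, 4 in Ovol2b-Tg, 4 in Ovol2a/2b-Tg and 0 in Ovol2a-Tg. Of all tested genes 1.33% to 4.3% fell in these lines. The summed fibroblast markers were above WT in PGCLC of all 4 transgenic lines. The 8 markers summed to 261 to 282 TPM in Cdh1-Tg, 179 to 228 TPM in Ovol2b-Tg, 81.0 to 149 TPM in Ovol2a-Tg and 118 to 131 TPM in Ovol2a/2b-Tg, against 18.2 to 27.1 TPM in WT. Of 6 tested markers 2 were called higher in Cdh1-Tg, 5 in Ovol2b-Tg, 3 in Ovol2a-Tg and 5 in Ovol2a/2b-Tg, and none was called lower. Without Col1a1 the sums were 26.3 to 38.7 TPM over the 4 lines, against 9.90 to 15.0 TPM in WT. Of the 8 primitive streak and mesoderm markers 2 were called higher in each line. In Ovol2a/2b-Tg 5 were called lower, in Cdh1-Tg 2, and in Ovol2a-Tg and Ovol2b-Tg 1 each. Hand1 was at 849 to 875 TPM in Cdh1-Tg, 1098 to 1276 TPM in Ovol2b-Tg and 388 to 775 TPM in Ovol2a-Tg. It was at 507 to 520 TPM in Ovol2a/2b-Tg, against 80.9 to 141 TPM in WT. What part these shifts had in the WNT target values was not tested.

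Set against TKO, the transgenic lines gave 3 called values out of 24, all lower than in TKO, where 3.58% of all values of all genes were called and 1.72% were called lower. Of the 24, 12 had an unadjusted p under 0.05, and limma-voom called 4. Nkd1 fell in Ovol2a-Tg PGCLC, at 22.4 and 34.1 TPM, against 72.1 and 78.0 TPM in TKO PGCLC (log2 fold change −1.41 ± 0.19, limma, BH adjusted p = 0.000214). In Ovol2a/2b-Tg PGCLC Nkd1 (−2.01 ± 0.19, limma, BH adjusted p = 1.65e-06) and Lef1 (−1.39 ± 0.16, limma, BH adjusted p = 1.21e-05) both fell. No library of these lines overlapped with TKO for the genes named. In Cdh1-Tg PGCLC Nkd1 stood at −0.97 ± 0.19 (limma, BH adjusted p = 0.00237) and was called without replicate 1 of TKO (−1.03 ± 0.24) or without replicate 2 of Cdh1-Tg (−1.0 ± 0.24). Sp5 had values of −0.27 to 0.28 in the 4 lines against TKO, and none of its p-values passed.

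Ovol1KO had the fewest genes changed of the 8 lines in PGCLC, 0.666% of all tested genes. None of the 6 genes was called in its PGCLC by limma or limma-voom, although all 6 values were negative and 5 had an unadjusted p under 0.05 in limma. Notum was at 13.6 and 18.1 TPM in Ovol1KO PGCLC, against 27.7 and 24.0 TPM in WT PGCLC (log2 fold change −0.68 ± 0.19, limma, BH adjusted p = 0.0651). Tcf7 was at 113 and 149 TPM, against 178 and 170.05 TPM in WT PGCLC (−0.42 ± 0.10, limma, BH adjusted p = 0.0346). The libraries of Ovol1KO and WT did not overlap for either gene. The median over the 6 genes was −0.44, and over all tested genes 0.002.

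Sp5 and Nkd1 thus ordered the lines differently in PGCLC. For Sp5 both WT libraries were above every library of the other 8 lines, which ran from 20.9 to 77.4 TPM. For Nkd1 the order of the means was Ovol2KO, TKO, Ovol2b-Tg, Cdh1-Tg, Ovol2a-Tg, Ovol2a/2b-Tg, WT, Ovol1KO and Ovol3KO, and overlap between neighbours was limited to Ovol2KO with TKO and Ovol2a/2b-Tg with WT. The ratio of Nkd1 to Sp5 within a library was chosen after the values were seen and is given without a test. It was 1.48 and 1.54 in Ovol2KO, 1.56 and 2.08 in TKO, 1.90 and 1.18 in Ovol2b-Tg and 0.929 and 0.992 in Cdh1-Tg. It was 0.425 and 0.692 in Ovol2a-Tg and 0.429 and 0.407 in Ovol2a/2b-Tg. The lowest values were 0.108 and 0.148 in Ovol1KO and 0.0897 and 0.131 in Ovol3KO, against 0.205 and 0.141 in WT. Ovol3KO was thus below both WT libraries, Ovol1KO overlapped with WT, and the other 6 lines were above it.

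**Figure D3:**
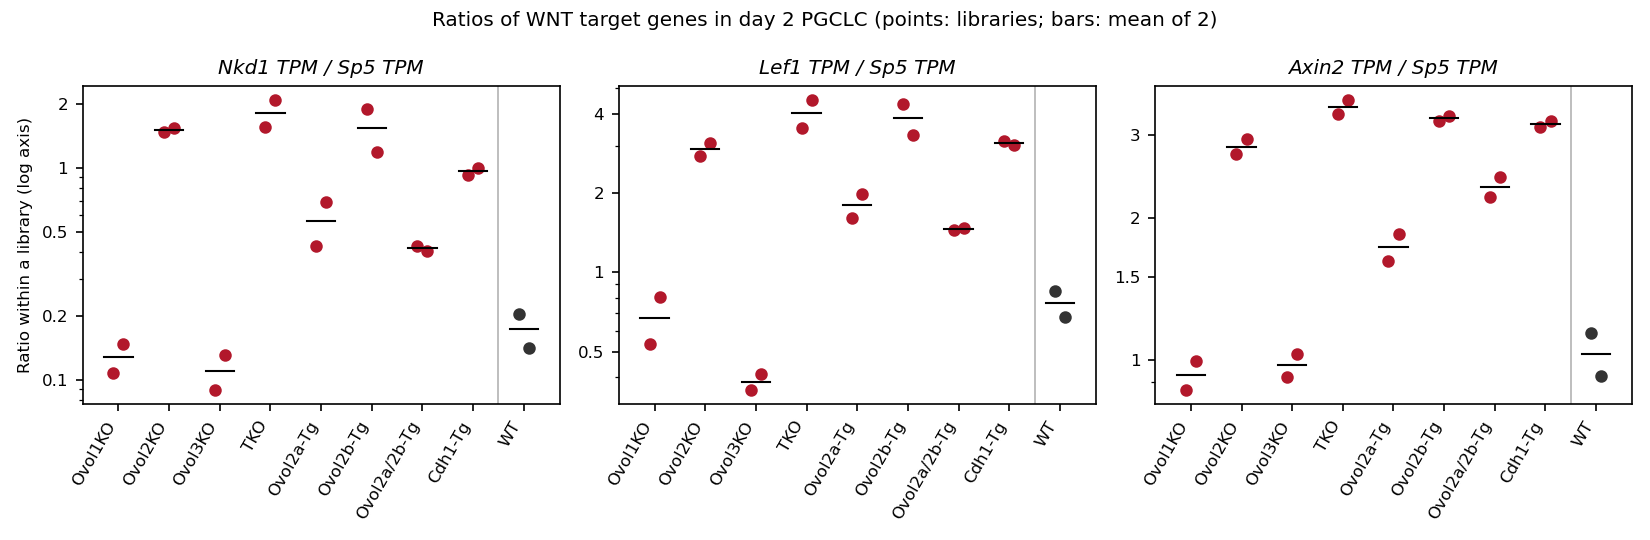
Ratios of Nkd1, Lef1 and Axin2 to Sp5 (TPM over TPM, log axes) in day 2 PGCLC, 1 point per library, with bars at the mean of 2 libraries and WT at the right in black. The Nkd1 to Sp5 ratio lies between 0.0897 and 0.205 in Ovol1KO, Ovol3KO and WT and between 0.407 and 2.08 in the other 6 lines.

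In ESC, 5 of the 9 values called against WT were those of Lef1. Of 48 values for 6 genes and 8 lines, 7 were called higher and 2 lower, where 3.88% of all values of all genes were called. Lef1 was at 37.0 and 33.3 TPM in Cdh1-Tg ESC, 26.2 and 26.8 TPM in TKO ESC and 26.0 and 15.8 TPM in Ovol2b-Tg ESC, against 1.38 and 1.70 TPM in WT ESC. The log2 fold changes were 3.84 ± 0.23 (limma, BH adjusted p = 2.96e-08), 3.44 ± 0.23 (1.35e-07) and 3.07 ± 0.23 (5.05e-07). Lef1 was also higher in Ovol2KO ESC, at 8.92 and 5.49 TPM (1.67 ± 0.23, limma, BH adjusted p = 0.000197), and in Ovol2a/2b-Tg ESC, at 6.08 and 5.88 TPM (1.46 ± 0.23, limma, BH adjusted p = 0.000383). Every library of these 5 lines was above both WT libraries, while Ovol3KO ESC, at 0.638 and 0.884 TPM, were below them (−0.53 ± 0.23, limma, BH adjusted p = 0.153). Ovol2a-Tg ESC, at 3.77 and 3.14 TPM, and Ovol1KO ESC, at 2.40 and 2.63 TPM, were also above both WT libraries but not called. For Ovol2a-Tg the value was 0.81 ± 0.23, and it was called with a pseudocount of 0.1 (1.12 ± 0.27) and with limma-voom (1.23 ± 0.41). The Lef1 levels rest on 14 and 9 reads in WT ESC and on 5 and 4 reads in Ovol3KO ESC. Relative to its partner, Lef1 was 0.620 and 0.543 of Tcf7 in Cdh1-Tg ESC and 0.466 and 0.593 in TKO ESC, against 0.0196 and 0.0242 in WT ESC.

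The other ESC calls concerned Notum and Sp5. In Ovol2a-Tg ESC Notum was at 15.4 and 20.2 TPM, against 108 and 109 TPM in WT ESC (−2.55 ± 0.13 on the log2 scale, limma, BH adjusted p = 1.73e-08). Sp5 was at 2.59 and 2.93 TPM there, against 14.2 and 16.6 TPM in WT ESC (−2.12 ± 0.25, limma, BH adjusted p = 3.64e-05). Axin2 stood at 15.0 and 17.3 TPM in Ovol2a-Tg ESC, against 32.7 and 31.2 TPM in WT ESC (−0.94 ± 0.15, limma, BH adjusted p = 0.000357), and was called without replicate 2 of Ovol2a-Tg (−1.04 ± 0.18). The 3 genes that dip in EpiLC were thus also low in the ESC of this line. Sp5 was higher in Ovol2a/2b-Tg ESC (1.05 ± 0.25, limma, BH adjusted p = 0.00777) and Ovol2b-Tg ESC (1.0 ± 0.25, limma, BH adjusted p = 0.00939). Both calls were lost without replicate 1 of WT (0.95 ± 0.31 and 0.90 ± 0.31). They were also lost without replicate 2 of Ovol2a/2b-Tg (1.02 ± 0.32, limma, BH adjusted p = 0.0592) and without replicate 1 of Ovol2b-Tg (0.93 ± 0.31). Sp5 in Ovol3KO ESC, not called with all libraries (−0.85 ± 0.25), was called without its replicate 1 (−1.26 ± 0.25).

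In EpiLC 4 of 48 values were called, all higher than in WT, where 2.71% of all values of all genes were called and 1.57% were called higher. Limma-voom called 7. Lef1 was at 51.7 and 51.5 TPM in Cdh1-Tg EpiLC (1.62 ± 0.13 on the log2 scale, limma, BH adjusted p = 1.66e-07), 43.6 and 41.1 TPM in Ovol2b-Tg EpiLC (1.34 ± 0.13, limma, BH adjusted p = 6.07e-06) and 35.3 and 44.3 TPM in TKO EpiLC (1.25 ± 0.13, limma, BH adjusted p = 1.06e-05), against 16.0 and 16.3 TPM in WT EpiLC. These are the lines with the most Lef1 in ESC, and their EpiLC libraries were all above WT. Notum was higher in Ovol3KO EpiLC (1.28 ± 0.35, limma, BH adjusted p = 0.0109), a call that was lost without replicate 1 of WT (1.10 ± 0.43), whose Notum value came from 1 read, or without replicate 1 of Ovol3KO (1.13 ± 0.44). Sp5 was listed at 0 in 11 of 18 EpiLC libraries and at no more than 0.319 TPM in the others, so no fold is given. The Ovol2b-Tg EpiLC libraries differed from each other by little more than read sampling, with a chi-square per degree of freedom of 1.05, and averaging them into 1 sample ended no call.

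The wider WNT pathway was read from 5 further lists of genes. In WT PGCLC against WT EpiLC, 8 of the 13 tested other WNT targets rose and 2 fell, where 21.1% of all tested genes changed and 13.5% rose. The mesoderm factor T (log2 fold change 9.71 ± 0.26), the posterior factor Cdx1 (7.21 ± 0.25) and Sp8, a relative of Sp5 (5.27 ± 0.24), rose most, and Myc (−1.36 ± 0.19) and Nkd2 (−1.30 ± 0.25), a relative of Nkd1, fell. Of the 16 tested genes for WNT ligands and their processing, 12 rose and none fell in limma, led by Wnt3 (5.59 ± 0.22), Wnt8a (5.29 ± 0.34) and Wnt3a (5.05 ± 0.29). Of 17 receptors and R-spondins, 4 rose and 4 fell. Rspo3, which enhances the signal, stood at 61.4 ± 7.4 TPM in WT PGCLC and at 0.0502 ± 0.071 TPM in WT EpiLC (SD, n = 2 each), and the receptor Fzd10 rose by 5.57 ± 0.18. Tcf7l1, the TCF family member best known as a repressor, fell (−1.69 ± 0.10), opposite to Lef1 and Tcf7. It was 1 of 3 called among 19 genes of beta-catenin transduction, a share near that of all tested genes.

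Ovol3KO PGCLC were lower than WT PGCLC in other WNT genes as well. Where 12.8% of all tested genes changed and 8.5% fell, 6 of 13 other targets fell and none rose, led by T (log2 fold change −3.65 ± 0.35), the WNT inhibitor Dkk1 (−2.65 ± 0.28) and Cdx1 (−2.05 ± 0.22). Of the ligand list 10 of 16 fell and none rose, led by Wnt5a (−4.58 ± 0.30), Wnt3a (−3.29 ± 0.42) and Wnt6 (−3.29 ± 0.26). The list medians were −0.99 and −1.71, and the median over all tested genes was −0.115. Rspo3 fell (−4.31 ± 0.43), to 2.44 ± 2.0 TPM in Ovol3KO PGCLC, against 61.4 ± 7.4 TPM in WT PGCLC. Tcf7l1 rose (1.69 ± 0.12), at 157 ± 30 TPM in Ovol3KO PGCLC, against 47.4 ± 1.8 TPM in WT PGCLC and 156 ± 8.2 TPM in WT EpiLC (SD, n = 2 each). The secreted inhibitor Sfrp1 rose too (1.94 ± 0.15). Of 17 receptors and R-spondins 2 rose and 4 fell, with a median of −0.1. Tcf7l1 was the 1 gene called of 19 for beta-catenin transduction, and Sfrp1 the 1 gene called of 8 tested secreted antagonists. The shares called in the lists of Tcf7l1 and Sfrp1 were no larger than that of all tested genes.

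In Ovol2KO and TKO PGCLC genes of the wider lists also went both ways. Of the 13 other targets 4 rose and 1 fell in Ovol2KO, where 8.18% of all tested genes changed, and 3 rose and 3 fell in TKO, where 10.5% did. Cdx4, another posterior factor, was at 74.3 ± 11 TPM in Ovol2KO PGCLC and 125 ± 9.1 TPM in TKO PGCLC, against 2.37 ± 1.1 TPM in WT PGCLC (log2 fold changes 4.51 ± 0.31 and 5.26 ± 0.31). Myc (1.75 ± 0.18 in Ovol2KO and 2.20 ± 0.18 in TKO) and the R-spondin receptor Lgr5 (1.82 ± 0.25 and 1.27 ± 0.25) rose in both. Sp8 fell in both (−1.73 ± 0.23 and −2.13 ± 0.23), which is the direction of Sp5. T (−1.34 ± 0.35) and Cdx1 (−1.04 ± 0.22) fell in TKO. Of the 16 ligand genes 3 rose and 3 fell in Ovol2KO, and 2 rose and 3 fell in TKO. Among them Wnt5a rose (1.92 ± 0.30 in Ovol2KO and 2.43 ± 0.30 in TKO), while Wnt8a (−1.73 ± 0.25 and −1.95 ± 0.25) and Wnt3 (−1.23 ± 0.18 and −1.16 ± 0.18) fell. Of 17 receptors and R-spondins 2 rose and 4 fell in Ovol2KO, and 2 rose and 3 fell in TKO, with Rspo3 higher in both (1.48 ± 0.43 and 1.64 ± 0.43). The secreted antagonists Dkk3 (2.99 ± 0.30 and 3.05 ± 0.30) and Sfrp1 (1.90 ± 0.15 and 2.75 ± 0.15) rose in both, as the 2 called of 8 tested in each line.

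**Figure D4:**
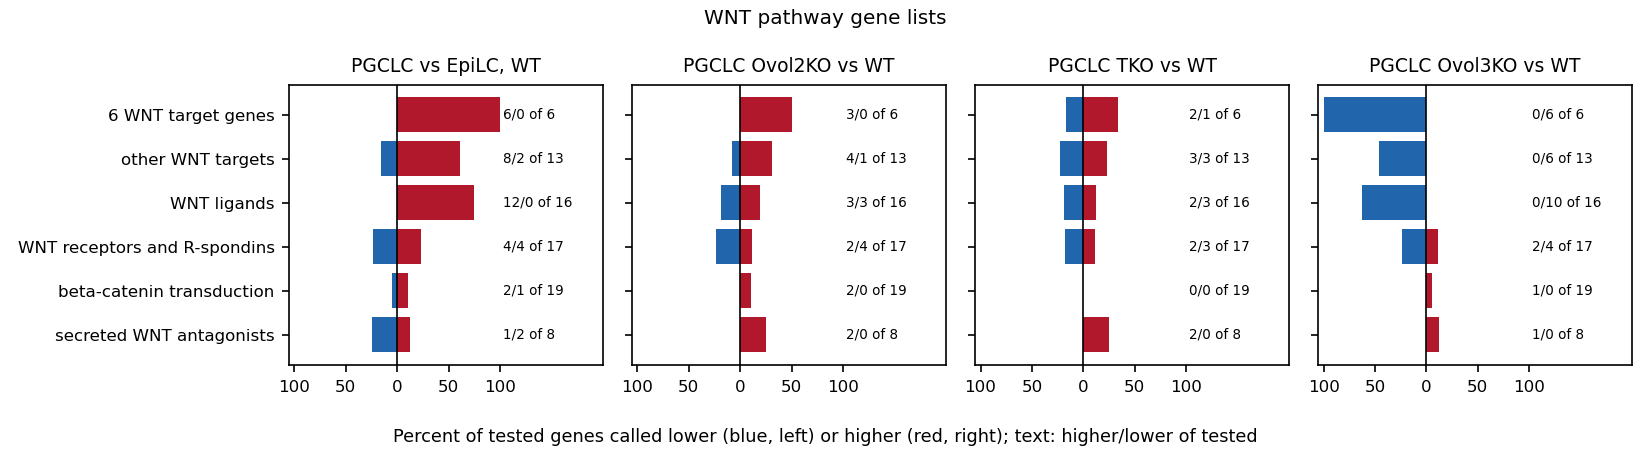
Percent of the tested genes of each WNT list that were called higher (red, to the right) or lower (blue, to the left) in 4 comparisons, with the counts beside the bars. The 6 target genes and 12 of 16 ligand genes were higher in WT PGCLC against EpiLC, and all 6 and 10 of 16 were lower in Ovol3KO PGCLC against WT.

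Across all 27 group means of log2(TPM + 1), the genes are described without a test, since the points share lines and stages. Axin2 and Sp5 had a Pearson r of 0.96 and Tcf7 and Nkd1 one of 0.96, while Notum and Lef1 had one of −0.14. Across the 9 PGCLC means alone, Axin2 and Lef1 had an r of 0.98 and Axin2 and Nkd1 one of 0.93, but Axin2 and Sp5 one of 0.34 and Sp5 and Nkd1 one of 0.07. In PGCLC Sp5 thus had an r of 0.53 or less with each other gene, while the other 5 had 0.80 or more among themselves. Each of the 6 genes had its lowest PGCLC mean in Ovol3KO, so these r values lean in part on 1 line. The r values without that line were not computed. The genes most like the mean of the 6 over the 27 groups were Tnfrsf19 (r = 0.971), Wnt5b (0.966), Mgat1 (0.964), Snai1 (0.963), Mocs1 (0.962), Gucy1a2, Snx1 and Ptgs1 (0.959 each), Ncstn (0.958) and Tmed10 (0.957). Most like the single genes were Slc39a1, Sept9 and Atp2c1 for Axin2 (0.965 to 0.974), Atp2c1, Rnf185 and Slc39a1 for Sp5 (0.952 to 0.963) and Tnrc18, Nynrin and Zfp704 for Notum (0.957 to 0.964). For Nkd1 they were Mlxip, Tmem88 and Cpm (0.974 to 0.981), for Tcf7 Mrgpre, Chst7 and Dpy19l3 (0.96 to 0.969) and for Lef1 Cdkn1c, Pitpna and Colec12 (0.914 to 0.928).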

How the data were processed

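Poly(A) RNA of 54 libraries was made into strand-keeping libraries (NEBNext Ultra Directional) with 12 cycles of PCR, per the labels' protocols. HISAT2, featureCounts, edgeR and the build mm10 are named in the submitters' processing notes, while no version, annotation or strand setting was found in the sources used here. The authors deposited 1 table of TPM. Groups were taken from the sample titles, which the cell type tags of 8 libraries contradict (the Ovol2a-Tg PGCLC pair and the Cdh1-Tg pairs of all 3 stages). No column of single samples was left unused (0), and for Ovol2b-Tg EpiLC the column names give the group only.

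Whole reads were recovered for 17968 of 17973 genes above 0, within 0.01 of a whole number. These reads served for depth, for the counting intervals and for limma-voom, an alternative chosen after seeing the data. The intervals cover counting error only.

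Tests used limma 3.58.1 (R 4.3.3) with trend and robust shrinkage on log2(TPM + 1), over the 18 libraries of a stage (9 residual degrees of freedom) for lines and over all 54 (27) for stages and differences of effects, and were tested on simulated data first. With 2 against 2 libraries the smallest two-sided p of an exact permutation test is 0.33. Pseudocount, low-value filter, scaling, fold threshold, libraries in the fit, spread model, replicate block and each library were varied. Members and gene lists were chosen with earlier results of these data known. The other WNT genes named are the up to 3 largest rises and falls called per list and comparison, and the 3 genes most like each member and 10 most like their mean were named by Pearson r. Genes of a list named beside marker sums, and the sums without them, were chosen after their values were seen. Promoter sequences came from RefSeq and gene positions from GENCODE.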

Additional observations from a re-analysis of the deposited data

Results flagged for a closer look

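The effect of a line on a WNT target gene differed between PGCLC and EpiLC in 9 of 18 cases tested, by a test of the difference itself (limma, BH adjusted p, line effect in PGCLC minus that in EpiLC, on the log2 scale). Over all tested genes 11.1% of such values were called for Ovol2KO, Ovol3KO and TKO together. In Ovol3KO it was −2.89 for Nkd1, −2.79 for Notum, −2.64 for Axin2, −2.40 for Lef1, −1.83 for Sp5 and −1.52 for Tcf7. Nkd1 had a difference of 1.55 in Ovol2KO and of 1.49 in TKO, and Sp5 one of −1.06 in TKO. The Sp5 values rest on EpiLC libraries with 0 or 1 read in Ovol3KO, TKO and WT, where log2(TPM + 1) holds the EpiLC effect near 0. With limma-voom they were −0.89 ± 1.13 in Ovol3KO and 0.02 ± 1.14 in TKO, and with a pseudocount of 0.1 the TKO value was −0.79 ± 0.44 (limma, BH adjusted p = 0.232). Limma-voom called the other 7.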

How the results depend on the processing

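Of 300 values for 6 genes in 50 comparisons, 131 were called, and 117 of these were called under every alternative run. Without the fold threshold 19 of 48 values were called for the ESC lines and 12 of 48 for the EpiLC lines, each against WT. The counts were 8 of 24 for the transgenic lines against TKO and 1 of 6 for TKO against Ovol2KO. The matching share of all tested genes was not pooled over lines. By line it ran from 3.24% to 41.7% in EpiLC and from 1.19% to 37.3% for the transgenic lines against TKO. In ESC it was for example 2.01% for Ovol1KO, 18.6% for TKO and 25.3% for Cdh1-Tg. For TKO against Ovol2KO in PGCLC it was 5.59%. In PGCLC against WT the counts out of 6, with the share of all tested genes, were 1 for Ovol1KO (2.66%), 5 for Ovol2KO (27.6%) and 2 for Ovol2a-Tg (15.4%). They were 4 for Ovol2b-Tg (29.9%), 3 for Ovol2a/2b-Tg (34.6%) and 6 for Cdh1-Tg (37.5%). Limma-voom on recovered reads gave 7 for the EpiLC lines against WT, and it turned the difference of the TKO effect on Sp5 to 0.02. Leaving out 1 library at a time gave 7 to 10 calls for ESC lines, 3 to 4 for EpiLC lines and for transgenic lines against TKO, 0 to 1 for Ovol2a-Tg and Ovol2a/2b-Tg PGCLC, 2 to 3 for TKO PGCLC, 4 to 5 for WT EpiLC against ESC, 36 to 37 and 40 to 41 for the stage steps of the 8 lines, and 8 to 9 for the differences of effects. Counts were 0 for Ovol1KO PGCLC and for TKO against Ovol2KO, 2 for Ovol2b-Tg and Cdh1-Tg, 3 for Ovol2KO, and 6 for Ovol3KO and for WT PGCLC against EpiLC, whichever library was left out. The lone library of a group was then assumed to vary like the other groups. Quantile scaling, a pseudocount of 0.1 and limma-voom ended 6, 1 and 3 calls and added 2, 2 and 5, apart from the reversal. Among them was the loss of the Tcf7 calls in Ovol2KO (0.95) and Ovol2a/2b-Tg (0.91) PGCLC against EpiLC with quantile scaling, short of the fold threshold. The filters on low values, the spread model and the libraries in the fit changed none. Nothing in the labels says that equal replicate numbers pair samples, and same-numbered libraries did not deviate together (median r −0.01 over 23 pairs, 2 over 0.1). A replicate block ended 2 calls, Tcf7 in PGCLC against EpiLC of Ovol2KO (0.95) and of Ovol2a/2b-Tg (0.99). The shallowest libraries and the few EpiLC reads of Sp5 and Notum limit the precision there.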
